A study of Homo sapiens with 9 samples.

Results

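The histone cluster genes are the genes, grouped at a few places in the human genome, that encode the linker histone H1 and the core histones H2A, H2B, H3 and H4. Rows of the deposited table were taken where the gene symbol begins with HIST1H, HIST2H, HIST3H or HIST4H and holds no "PS", which gave 75 rows and dropped 13. Of these 75 rows, 16 had 10 or more counts in at least 2 of the 9 libraries and are described as the members. The other 59 rows did not reach that level, and 9 of the 75 were at 0 in all 9 libraries. By type, 1 of 6 H1 rows, 4 of 16 H2A rows, 6 of 23 H2B rows, 1 of 15 H3 rows and 4 of 15 H4 rows were kept. All 16 passed the filter on low counts used for the tests, and 1 row that the rule did not keep (HIST2H2BF) passed it too.

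The series is RNA-seq of MM1S, an established human multiple myeloma cell line, and asks what the Polycomb protein PHF19 does to its transcriptome. KD_Rescued cells (2 libraries) carried the shRNA against PHF19 together with a PHF19 that the shRNA cannot target. PHF19_KD cells (3 libraries) carried the lentiviral shRNA against PHF19. Control cells, called shEV (3 libraries), were infected with lentivirus carrying an empty vector. All cells grew in regular medium. The title of 1 further library calls it a knockdown while its shRNA label names shRNA-resistant PHF19, so it is in no group and no test and is called the library with disagreeing labels. The library names put both KD_Rescued libraries in a lane that no other library shares, so an effect of lane and an effect of rescue cannot be told apart in any comparison with KD_Rescued.

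Most histone cluster genes are replication-dependent: their mRNA is made in S phase, when new DNA is packed into chromatin. These mRNAs normally end in a stem-loop that is bound by the stem-loop binding protein SLBP, and carry no poly(A) tail. Library kits that capture poly(A) tails recover few of them, and the labels do not say how mRNA was selected here. Some histone cluster genes are also known to make longer, polyadenylated mRNA, which reads past the stem-loop. Variant histones such as H2AFZ are encoded outside the clusters, mostly by genes with ordinary polyadenylated mRNA, and many of them, though not all, are made throughout the cell cycle.

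The stem-loop was looked up in the transcripts of GENCODE 29 (build GRCh38) by gene symbol, because it is the feature that separates these mRNAs from others. The letters searched were 16 bases on the transcript strand, GGNNCT for the first arm of the stem, TTTN for the loop and AGNNCC for the other arm, with N for any base. Among genes with annotated bases after a stop codon, 30 of 35 histone rows (85.7%) held it within the first 100 bases after the stop, against 2 of 19434 other genes (0.0103%). Counted over any transcript, 80 of 57133 genes (0.14%) held the motif and 38 (0.0665%) held it on the complementary strand. The sites of the members whose levels the results turn on read as follows, with the stem-loop in capitals and 5 bases on each side.

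HIST2H4A and HIST2H4B: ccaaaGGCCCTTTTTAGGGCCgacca
HIST1H4I: aaaaaGGCCCTTTTTAGGGCCcctaa
HIST4H4: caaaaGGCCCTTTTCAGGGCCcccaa
HIST1H2AC: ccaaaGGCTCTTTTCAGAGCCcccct
HIST2H2AA4: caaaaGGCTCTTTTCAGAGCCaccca
HIST2H2BE and HIST1H3H: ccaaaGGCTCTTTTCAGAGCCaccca
HIST1H2BN: acaacGGCTCTTTTCAGAGCCaccta
HIST1H2BD: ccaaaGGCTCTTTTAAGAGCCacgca

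Across the 33 histone rows with a match, 5 spellings of the 16 bases occurred. The commonest, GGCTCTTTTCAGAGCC, was in 17 rows, of which 5 were members. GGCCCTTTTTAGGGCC was in 3 rows, and all 3 were members of type H4. The motif was found in 13 of the 16 members (81.25%) and in 20 of the 59 other rows (33.9%). The annotated transcript ran 100 bases or more past it in 11 of the 16 members (68.75%) and in 13 of the 59 others (22.03%). The longest annotated transcript had a median of 1607.5 bases among members and 438 among the others. The members without a match were HIST1H1C, HIST2H2AC and HIST1H2BK, and for each of these the annotation holds no bases after the stop codon. No match therefore says only that the letters are not in the annotated bases.

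By GENCODE 29, 8 members are on chromosome 6, 7 are on chromosome 1 and HIST4H4 is on chromosome 12. HIST2H2BC and HIST2H2BD are annotated there as transcribed unprocessed pseudogenes, although their symbols carry no "PS".

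The counts behind the members are small. Column totals were 23644100 and 23751400 counts in KD_Rescued, 10609800 to 12024900 in PHF19_KD and 16974700 to 22739700 in shEV, with 10164100 in the library with disagreeing labels. All 75 histone rows together held 25.4 and 23.2 CPM of the column total in KD_Rescued, 34.5, 39.3 and 42.8 in PHF19_KD and 22.7, 25.0 and 21.5 in shEV. A count of 3, taken as the floor of detection, corresponds to 0.125 to 0.293 CPM depending on the library, for counting error only. Levels are given in normalised CPM, the count scaled to a common library size by column total and TMM factor. The mRNA of PHF19 was at 220 and 218 CPM in KD_Rescued, at 26.0, 27.5 and 27.3 CPM in the PHF19_KD libraries and at 123, 124 and 103 CPM in shEV, in the order of the labels. All 8 markers of myeloma and plasma cells were above 1 CPM in every group, with a summed level of 3665 to 5243 CPM. Single markers moved both ways in PHF19_KD against shEV. SDC1, CD38, XBP1 and MAF were called higher, at log2 fold changes of 0.60, 1.16, 0.14 and 1.17. IRF4 and TNFRSF17 were called lower, at -0.78 and -1.07, and PRDM1 and SLAMF7 were not called. Some markers of other cells moved with the groups too. The 5 fibroblast markers summed to 0.957 and 1.54 CPM in KD_Rescued, 9.89 to 10.6 CPM in PHF19_KD and 2.53 to 2.78 CPM in shEV, with PDGFRB and COL1A1 called higher in PHF19_KD against shEV while LUM was at 0 in all libraries and DCN and COL1A2 at most at 0.0867 CPM. The 6 monocyte markers summed to 9.71 and 10.4 CPM in KD_Rescued, 26.5 to 31.3 CPM in PHF19_KD and 20.4 to 23.2 CPM in shEV, nearly all of it CD68, with ITGAM also called higher in PHF19_KD against shEV and CD14 and LYZ at most at 0.177 CPM. HBB, an erythroid marker, was at 7.73 and 7.48 CPM in KD_Rescued, 1.16 to 1.84 CPM in PHF19_KD and 5.26 to 5.87 CPM in shEV. T and NK cell markers summed to at most 5.29 CPM and epithelial markers to at most 1.36 CPM. Among these, NCAM1 and KRT18 were called higher and CD3E lower in PHF19_KD against shEV. The part of these genes' cell types in the histone results was not tested.

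The summed level of the 16 members was higher in PHF19_KD than in the other groups. It was 21.9 and 20.4 CPM in KD_Rescued, 30.9, 35.8 and 38.8 CPM in the PHF19_KD libraries and 20.2, 22.0 and 17.5 CPM in shEV. The lowest PHF19_KD library stood above the highest of the other groups, and KD_Rescued overlapped shEV. The ratio of group means was 1.77 for PHF19_KD over shEV, 0.601 for KD_Rescued over PHF19_KD and 1.06 for KD_Rescued over shEV. Over all 75 rows these ratios were 1.64, 0.621 and 1.02. The sums carry no test. In bulk RNA, fewer cells of a kind and less RNA per cell cannot be told apart.

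By type, the summed H4 and H2B members were highest in PHF19_KD and the H1 member was highest in shEV. Members of type H4 summed to 4.27 ± 0.0781 CPM in KD_Rescued, to 9.43 ± 1.999 CPM in the PHF19_KD libraries and to 2.21 ± 0.336 CPM in shEV (SD over 2, 3 and 3 libraries), a ratio of 4.27 between PHF19_KD and shEV. Those of type H2B summed to 5.70 ± 0.177, 10.4 ± 0.198 and 3.77 ± 0.492 CPM in KD_Rescued, PHF19_KD and shEV, a ratio of 2.76 between PHF19_KD and shEV. Over all 75 rows the same ratio was 3.73 for H4 and 2.19 for H2B. Not every H2B row went this way. HIST1H2BH, HIST1H2BJ and HIST1H2BL, left out by the count rule, were at 0 in PHF19_KD and present in every shEV library, on at most 8 counts. HIST1H2BC was lower in PHF19_KD than in shEV too, while HIST2H2BF was higher. Most of the H4 sum came from HIST2H4A and HIST2H4B, 2 copies whose reads cannot be told apart. Together they held 3.19 of 4.27 CPM in KD_Rescued, 6.81 of 9.43 CPM in PHF19_KD and 1.37 of 2.21 CPM in shEV. For H2A the sums were 6.36 ± 1.21 CPM in KD_Rescued, 8.93 ± 1.63 CPM in PHF19_KD and 6.44 ± 1.24 CPM in shEV. The single H3 member was at 0.375 ± 0.117, 0.816 ± 0.199 and 0.410 ± 0.261 CPM in the same order of groups. The H1 gene was at 4.44 ± 0.158 CPM in KD_Rescued, 5.62 ± 0.686 CPM in PHF19_KD and 7.07 ± 0.562 CPM in shEV.

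**Figure D1:**
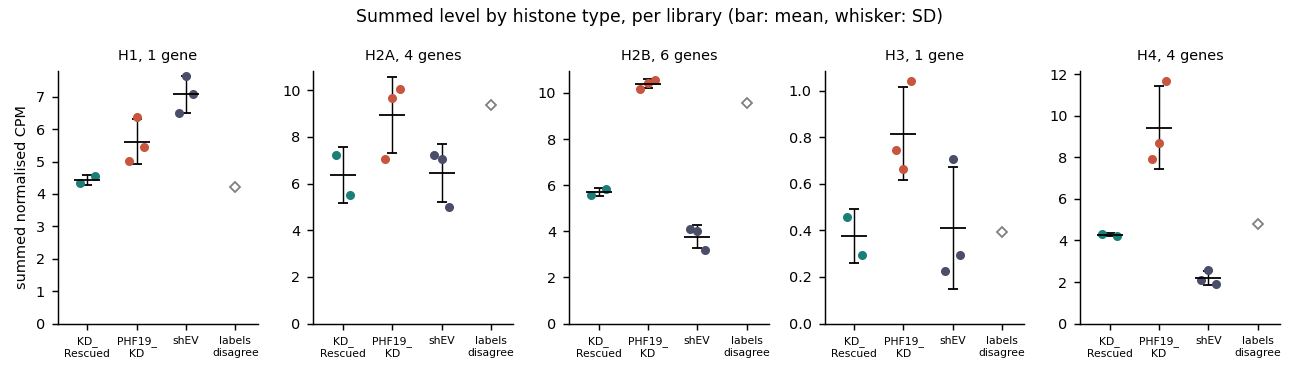
Summed level of the members of each histone type in normalised CPM (vertical axis, from 0), by group; points are libraries, bars are means, whiskers are SD and the open diamond is the library with disagreeing labels. For H4 and H2B every PHF19_KD library lies above every KD_Rescued and shEV library, and for H1 every KD_Rescued and PHF19_KD library lies below every shEV library.

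The make-up of the histone counts differed accordingly. As a share of the counts of all 75 rows, H4 made up 17.8% and 19.8% in KD_Rescued, 24.6% to 28.8% in PHF19_KD and 11.03% to 12.0% in shEV. H1 made up 17.7% and 20.4% in KD_Rescued, 13.5% to 16.5% in PHF19_KD and 28.7% to 34.3% in shEV. No library of 1 group overlapped those of another in either share. H2A made up 26.7% and 31.3% in KD_Rescued, 22.1% to 25.4% in PHF19_KD and 26.4% to 33.3% in shEV. The values for H2B were 27.4% and 29.7% in KD_Rescued, 27.1% to 33.1% in PHF19_KD and 20.7% to 22.8% in shEV, so that both manipulated groups lay above the control.

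Between PHF19_KD and shEV, 8 members rose, 2 fell and 6 did not pass the threshold, which was a Benjamini-Hochberg adjusted p below 0.05 in edgeR's quasi-likelihood test over 16600 genes. The median log2 fold change of the 16 was 1.37, against 0.0342 over all genes tested. The comparison called 69.1% of all genes, 34.9% as higher and 34.2% as lower. The 8 of 16 members called higher and the 2 called lower stand beside those shares, and 10 of 16 called in all is near the share of all genes. By type, 3 of 4 H4 rows, 4 of 6 H2B rows and 1 of 4 H2A rows rose, and the single H1 row and 1 H2A row fell. The H4 rows HIST2H4A and HIST2H4B share nearly all their annotated sequence, so they are not separate measurements. The H2B rows include the pseudogenes HIST2H2BC and HIST2H2BD, of which neither was called. All 10 called members had groups that did not overlap, 8 higher and 2 lower, as had 71.9% of all genes, 36.6% higher and 35.3% lower. The rule on counts bears on these numbers for 3 members, which it kept only through the groups where they are high. HIST1H2BN reached 10 counts only in PHF19_KD and in the library with disagreeing labels, HIST1H4I reached them in no shEV library, and HIST2H2AC reached them in no PHF19_KD library. The rule favours a difference in these 3, so their fold changes and adjusted p-values are given as descriptions, not as support for one. The 8 include HIST1H2BN and HIST1H4I, the 2 include HIST2H2AC, and the counts by type hold all 3.

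In KD_Rescued against PHF19_KD 1 member rose, 6 fell and 9 did not pass the test, with a median log2 fold change of -1.11 against 0.0349 over all genes. The riser was HIST2H2AC and the fallers include HIST1H2BN, both kept by the count rule only through groups where they are high. Of all genes, 63.4% were called, 33.9% higher and 29.5% lower. Groups did not overlap for 2 members higher and 9 lower, beside 77.2% of all genes, 40.8% higher and 36.4% lower. Between KD_Rescued and shEV no member rose by edgeR, 2 fell and 14 did not pass, beside 39.8% of all genes called, 20.7% higher and 19.1% lower. Groups did not overlap for 4 members higher and 2 lower, beside 61.8% of all genes, 32.5% higher and 29.2% lower. At an unadjusted p below 0.05, 2 members were higher in KD_Rescued than in shEV. DESeq2 and limma-voom called 0 of them higher as well, while without the filter on low counts edgeR called 2. The median over the members in this comparison was 0.0411, against 0.0154 over all genes. The 3 comparisons share their libraries, so their values are set side by side for each member and not correlated. Nothing in the labels states that replicates came from separate cultures, so the p-values here reflect how libraries of a group spread, and that spread may be technical.

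**Figure D2:**
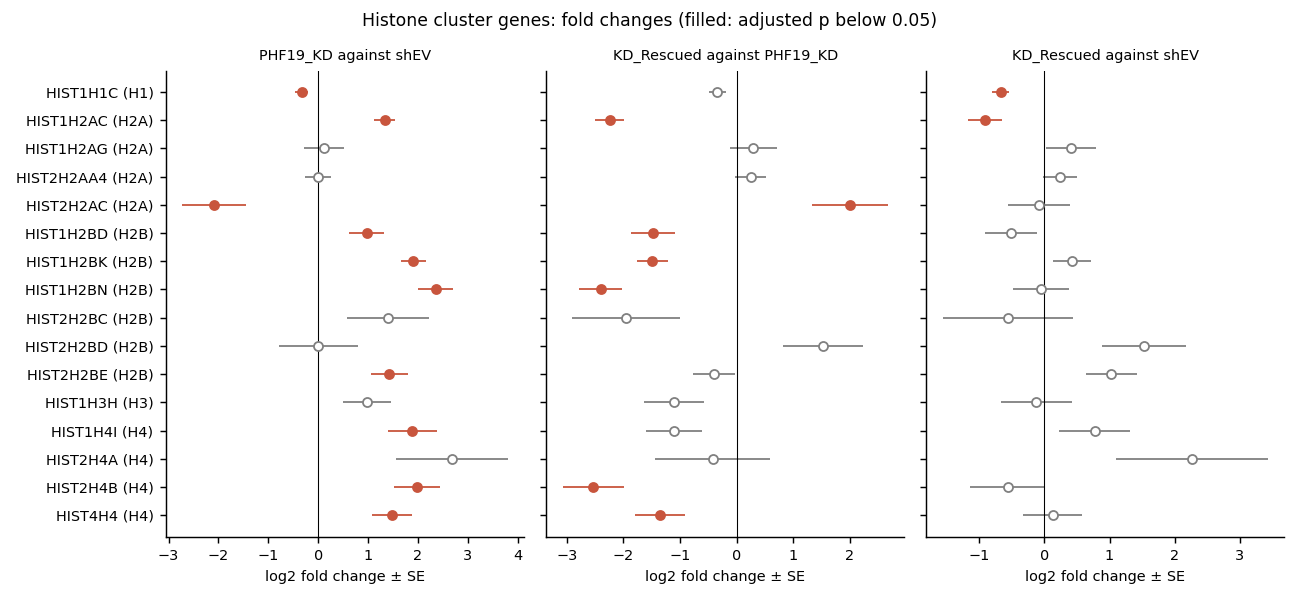
Log2 fold change of each member (horizontal axis) with its SE in the 3 comparisons; filled points have an adjusted p below 0.05. In PHF19_KD against shEV 8 filled points lie above 0 and 2 below, in KD_Rescued against PHF19_KD 1 lies above and 6 below, and in KD_Rescued against shEV 2 lie below. The filled points include HIST1H2BN, HIST1H4I and HIST2H2AC, which the count rule kept only through groups where they are high.

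HIST2H4A and HIST2H4B encode histone H4, which pairs with H3 in the core of the nucleosome. Their annotated transcripts share nearly all sequence: 98.6% of the 31-base words of HIST2H4A occur in HIST2H4B, and 1 transcript of 610 bases is identical. Reads can therefore not be assigned to either, and the separate rows are uncertain. HIST2H4A was at 3.04 and 2.23 CPM in KD_Rescued, 0, 4.06 and 6.43 CPM in the PHF19_KD libraries and 0.792, 0.213 and 0.592 CPM in shEV. HIST2H4B was at 0.202 and 0.900 CPM in KD_Rescued, 5.21, 2.22 and 2.50 CPM in the PHF19_KD libraries and 0.790, 0.950 and 0.765 CPM in shEV. PHF19_KD replicate 1, which has HIST2H4A at 0, has the highest HIST2H4B, and the library with disagreeing labels shows the reverse with 3.91 CPM of HIST2H4A and 0 of HIST2H4B.

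Added together, the pair gave whole numbers in all 9 libraries: 78 and 75 counts in KD_Rescued, 56, 76 and 103 in PHF19_KD, and 35, 23 and 23 in shEV. In CPM this was 3.24 and 3.13 in KD_Rescued, 5.21, 6.29 and 8.93 in PHF19_KD, and 1.58, 1.16 and 1.36 in shEV, with no overlap between any groups. The pair rose by a log2 fold change of 2.31 ± 0.22 (SE), or 4.95-fold, in PHF19_KD against shEV (edgeR adjusted p = 1.62e-06). It fell in KD_Rescued against PHF19_KD, at -1.10 ± 0.22 (edgeR adjusted p = 0.000935), and stayed above control, with 1.21 ± 0.24, or 2.31-fold, for KD_Rescued against shEV (edgeR adjusted p = 0.00218). Summing these copies was chosen after seeing the data.

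As separate rows, HIST2H4B rose in PHF19_KD at 1.98 ± 0.46 (edgeR adjusted p = 0.00291) and fell in KD_Rescued against PHF19_KD at -2.54 ± 0.54 (edgeR adjusted p = 0.00189). HIST2H4A did not pass the test in PHF19_KD against shEV, at 2.69 ± 1.12 (edgeR adjusted p = 0.0739). Without PHF19_KD replicate 1 it did, at 3.26 with an edgeR adjusted p of 8.74e-05. Its other changes, -0.43 ± 1.01 in KD_Rescued against PHF19_KD (edgeR adjusted p = 0.734) and 2.26 ± 1.17 in KD_Rescued against shEV (edgeR adjusted p = 0.181), did not pass, and without PHF19_KD replicate 1 they did, at -0.99 (0.0439) and 2.26 (0.00264).

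**Figure D3:**
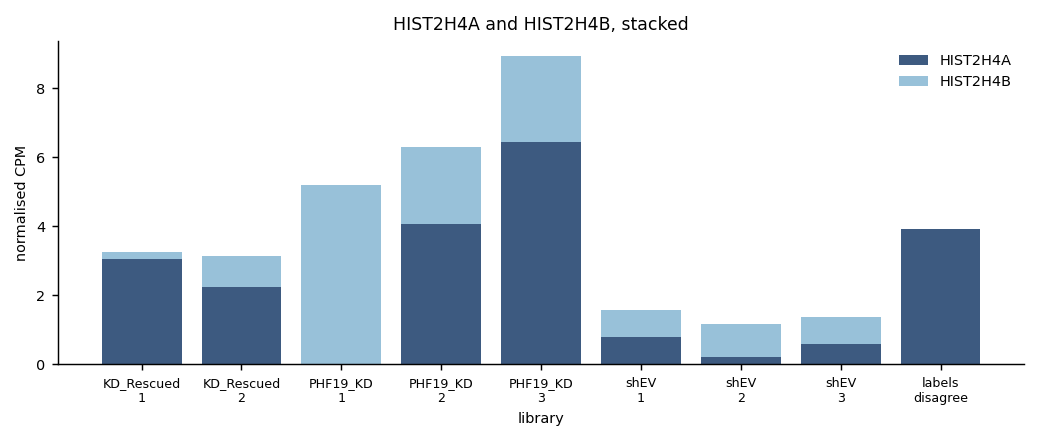
Levels of HIST2H4A and HIST2H4B stacked in each library (vertical axis, normalised CPM, from 0), with KD_Rescued left of PHF19_KD and shEV. The split between the 2 copies changes from library to library, while the stacked height is 3.13 to 3.24 CPM in KD_Rescued, 5.21 to 8.93 CPM in PHF19_KD and 1.16 to 1.58 CPM in shEV.

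HIST4H4 is the H4 gene that lies outside the large clusters, on chromosome 12, and only 3.08% of its words occur in other genes. Its counts were whole in every library. Levels were 0.624 and 0.709 CPM in KD_Rescued, 1.58, 1.74 and 1.82 CPM in the PHF19_KD libraries and 0.452, 1.06 and 0.295 CPM in shEV. All 3 PHF19_KD libraries lay above all others. It rose in PHF19_KD at 1.48 ± 0.40 (edgeR adjusted p = 0.00576) and fell in KD_Rescued against PHF19_KD at -1.35 ± 0.44 (edgeR adjusted p = 0.0168). The fall did not pass with DESeq2 (adjusted p = 0.0514), nor in edgeR without KD_Rescued replicate 1 (0.0900) or replicate 2 (0.0608), each of which leaves 1 library in that group, assumed to vary like the other groups.

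HIST1H4I, also an H4 gene, had 0.458 and 0.376 CPM in KD_Rescued, 1.12, 0.662 and 0.938 CPM in the PHF19_KD libraries and 0.0851, 0.354 and 0.272 CPM in shEV, from at most 12 counts a library. The count rule kept it through KD_Rescued and PHF19_KD. It passed the filter on low counts for the tests only through PHF19_KD, where it is high. Groups did not overlap. Its changes are therefore given as descriptions. In PHF19_KD against shEV it rose at 1.88 ± 0.49 (edgeR adjusted p = 0.00460). The change of -1.11 ± 0.49 in KD_Rescued against PHF19_KD did not pass (edgeR adjusted p = 0.0668). It passed at -1.26 under upper-quartile scaling (edgeR adjusted p = 0.0397) and without shEV replicate 1 (0.0386).

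Among the H2B genes, whose product pairs with H2A in the nucleosome, HIST1H2BN was kept by the rule through PHF19_KD, where it is high. It was at 0.302 and 0.351 CPM in KD_Rescued, 1.49, 1.997 and 1.56 CPM in the PHF19_KD libraries and 0.281, 0.415 and 0.282 CPM in shEV. KD_Rescued lay within the range of shEV, and PHF19_KD above both. Its changes are given as descriptions. The log2 fold change was 2.36 ± 0.34 in PHF19_KD against shEV (edgeR adjusted p = 6.20e-05) and -2.40 ± 0.38 in KD_Rescued against PHF19_KD (edgeR adjusted p = 0.000151). For KD_Rescued against shEV it was -0.05 ± 0.43 (edgeR adjusted p = 0.951). Its counts were not whole in any of the 9 libraries, and 17.5% of its words occur in other genes.

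HIST1H2BK is an H2B gene known to give polyadenylated mRNA. It was at 1.05 and 1.47 CPM in KD_Rescued, 3.5002, 3.73 and 3.32 CPM in the PHF19_KD libraries and 0.913, 1.22 and 0.651 CPM in shEV. Again PHF19_KD stood apart, while the other groups overlapped. It rose in PHF19_KD at 1.91 ± 0.26 (edgeR adjusted p = 3.37e-05) and fell in KD_Rescued against PHF19_KD at -1.49 ± 0.28 (edgeR adjusted p = 0.000533). Of its words 74.4% occur in H2BFS, a similar gene outside the rule. Summed with H2BFS, a choice made after seeing the data, the changes were 1.81 (edgeR adjusted p = 1.04e-05) and -1.62 (edgeR adjusted p = 7.19e-05).

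HIST2H2BE, another H2B gene with known polyadenylated mRNA, was at 1.29 and 1.41 CPM in KD_Rescued, 0.884, 2.36 and 2.10 CPM in the PHF19_KD libraries and 0.779, 0.522 and 0.721 CPM in shEV. It rose in PHF19_KD at 1.42 ± 0.37 (edgeR adjusted p = 0.00474), with PHF19_KD replicate 1 close to the controls. KD_Rescued also lay above shEV in both libraries, at 1.03 ± 0.39, which did not pass (edgeR adjusted p = 0.0546). It passed without PHF19_KD replicate 1 (edgeR adjusted p = 0.0178) and with no filter on low counts (edgeR adjusted p = 0.0418).

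HIST1H2BD was at 0.636 and 0.360 CPM in KD_Rescued, 1.80, 1.04 and 1.40 CPM in the PHF19_KD libraries and 0.832, 0.536 and 0.739 CPM in shEV. The rise of 0.97 ± 0.34 in PHF19_KD against shEV passed (edgeR adjusted p = 0.0240), but not without PHF19_KD replicate 1 (0.0943) or shEV replicate 2 (0.0769), with no filter (0.0602) or in DESeq2 (adjusted p = 0.133). The fall of -1.48 ± 0.39 in KD_Rescued against PHF19_KD passed (edgeR adjusted p = 0.00579), but not without KD_Rescued replicate 2 (0.0644).

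The pseudogenes HIST2H2BC and HIST2H2BD are uncertain too, but share less than the H4 pair: 71.6% of the words of HIST2H2BD occur in HIST2H2BC and 40.0% the other way, and no transcript is identical. HIST2H2BC was at 0 and 0.648 CPM in KD_Rescued, 1.39, 0.395 and 2.20 CPM in the PHF19_KD libraries and 0.406, 0.536 and 0.533 CPM in shEV. HIST2H2BD was at 2.30 and 1.59 CPM in KD_Rescued, 1.11, 0.908 and 0 CPM in the PHF19_KD libraries and 0.874, 0.789 and 0.274 CPM in shEV. Neither passed in any comparison in the edgeR fit. HIST2H2BD passed without the filter on low counts in KD_Rescued against PHF19_KD, at 1.56 (edgeR adjusted p = 0.000409), and against shEV, at 1.47 (0.000505), without PHF19_KD replicate 3 against shEV (0.00941), and in limma-voom against PHF19_KD, at 2.42 (adjusted p = 0.0345). HIST2H2BC passed without the filter in PHF19_KD against shEV, at 1.31 (edgeR adjusted p = 0.0114), and there without KD_Rescued replicate 1 (0.0339) or replicate 2 (0.0358). For KD_Rescued against PHF19_KD it passed without the filter, at -1.92 (edgeR adjusted p = 0.00102), without PHF19_KD replicate 2, at -2.40 (0.0414), and in limma-voom, at -3.22 (adjusted p = 0.0395). Without KD_Rescued replicate 2, which leaves that group at 0, it also passed against PHF19_KD (edgeR adjusted p = 0.00189) and shEV (0.0278). Summed, the pair was not whole in any of the 9 libraries and was at 2.30 and 2.24 CPM in KD_Rescued, 2.50, 1.30 and 2.20 CPM in the PHF19_KD libraries and 1.28, 1.33 and 0.807 CPM in shEV. Summing them, again a choice made after seeing the data, gave a rise in PHF19_KD against shEV at 0.79 ± 0.29 (edgeR adjusted p = 0.0272) and in KD_Rescued against shEV at 0.98 ± 0.29 (edgeR adjusted p = 0.0176).

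Among the H2A genes HIST1H2AC, known to give polyadenylated mRNA as well, rose. It was at 1.23 and 0.793 CPM in KD_Rescued, 3.81, 5.12 and 5.55 CPM in the PHF19_KD libraries and 1.94, 2.01 and 1.77 CPM in shEV. The groups did not overlap, with KD_Rescued lowest and PHF19_KD highest. It rose in PHF19_KD against shEV at 1.33 ± 0.21 (edgeR adjusted p = 0.000125) and fell in KD_Rescued against PHF19_KD at -2.24 ± 0.26 (edgeR adjusted p = 9.05e-06). It also fell below control in KD_Rescued, at -0.90 ± 0.26 (edgeR adjusted p = 0.0170), but not past the threshold without KD_Rescued replicate 2, at -0.62 (edgeR adjusted p = 0.165).

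HIST2H2AC, an H2A gene, moved in the opposite direction to HIST1H2AC. It was at 0.876 and 0.334 CPM in KD_Rescued, 0.128, 0.130 and 0.210 CPM in the PHF19_KD libraries and 0.867, 0.402 and 0.626 CPM in shEV. Each PHF19_KD library is at or below the level of 3 counts, with 1.38, 1.58 and 2.43 estimated counts. The rule kept it through KD_Rescued and shEV, where it is high. Its changes, too, are given as descriptions. In PHF19_KD against shEV it fell at -2.09 ± 0.63 (edgeR adjusted p = 0.0110). In KD_Rescued against PHF19_KD it rose at 2.003 ± 0.67 (edgeR adjusted p = 0.0199). The rise did not pass in DESeq2 (adjusted p = 0.0944) or limma-voom (0.0571), nor in edgeR without KD_Rescued replicate 1, at 1.17 (0.244), or without PHF19_KD replicate 1 (0.0642). Of its words 50.6% occur in other genes.

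The other H2A members showed no called change in any comparison. HIST2H2AA4 was at 4.20 and 3.59 CPM in KD_Rescued, 2.61, 3.59 and 3.60 CPM in the PHF19_KD libraries and 3.52, 4.25 and 2.03 CPM in shEV. Its difference between PHF19_KD and shEV was -0.01 ± 0.26 (edgeR adjusted p = 0.987). Of its words 97.2% occur in HIST2H2AA3, a copy not analysed here. HIST1H2AG was at 0.915 and 0.793 CPM in KD_Rescued, 0.513, 0.827 and 0.694 CPM in the PHF19_KD libraries and 0.904, 0.405 and 0.590 CPM in shEV, with all groups overlapping.

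HIST1H3H, the single H3 member, was at 0.458 and 0.292 CPM in KD_Rescued, 0.744, 0.662 and 1.04 CPM in the PHF19_KD libraries and 0.226, 0.708 and 0.295 CPM in shEV. PHF19_KD overlapped shEV through shEV replicate 2. HIST1H3H passed the filter on low counts only with the PHF19_KD libraries counted in. The change of 0.98 ± 0.49 in PHF19_KD against shEV did not pass (edgeR adjusted p = 0.0904). It passed without shEV replicate 2, at 1.64 (edgeR adjusted p = 0.0135), and in limma-voom, at 1.13 (adjusted p = 0.0461).

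HIST1H1C, the single H1 member, encodes a linker histone that binds the DNA between nucleosomes and is known to give polyadenylated mRNA. Its counts were whole in every library, and 0.82% of its words occur elsewhere. It was at 4.33 and 4.55 CPM in KD_Rescued, 5.02, 6.37 and 5.46 CPM in the PHF19_KD libraries and 6.51, 7.64 and 7.08 CPM in shEV. The groups did not overlap, and KD_Rescued was lowest. It fell in KD_Rescued against shEV at -0.67 ± 0.13 (edgeR adjusted p = 0.00211). Against PHF19_KD it was at -0.34 ± 0.15, which did not pass (edgeR adjusted p = 0.0564) but did under relative log expression scaling, at -0.39 (0.0373), under upper-quartile scaling, at -0.50 (0.00974), with a filter at 5 CPM (0.0213) and without PHF19_KD replicate 1 (0.0381).

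For the knockdown itself the fall of HIST1H1C, -0.33 ± 0.13 in PHF19_KD against shEV (edgeR adjusted p = 0.0387), passed only narrowly. It was lost without PHF19_KD replicate 1 (0.133) or replicate 3 (0.104), without shEV replicate 2 (0.129) or replicate 3 (0.0558), with a filter at 5 CPM (0.121) and in DESeq2 (adjusted p = 0.164). Under upper-quartile scaling it was -0.17 (edgeR adjusted p = 0.258). That scaling moved the median of all genes in this comparison to 0.19.

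**Figure D4:**
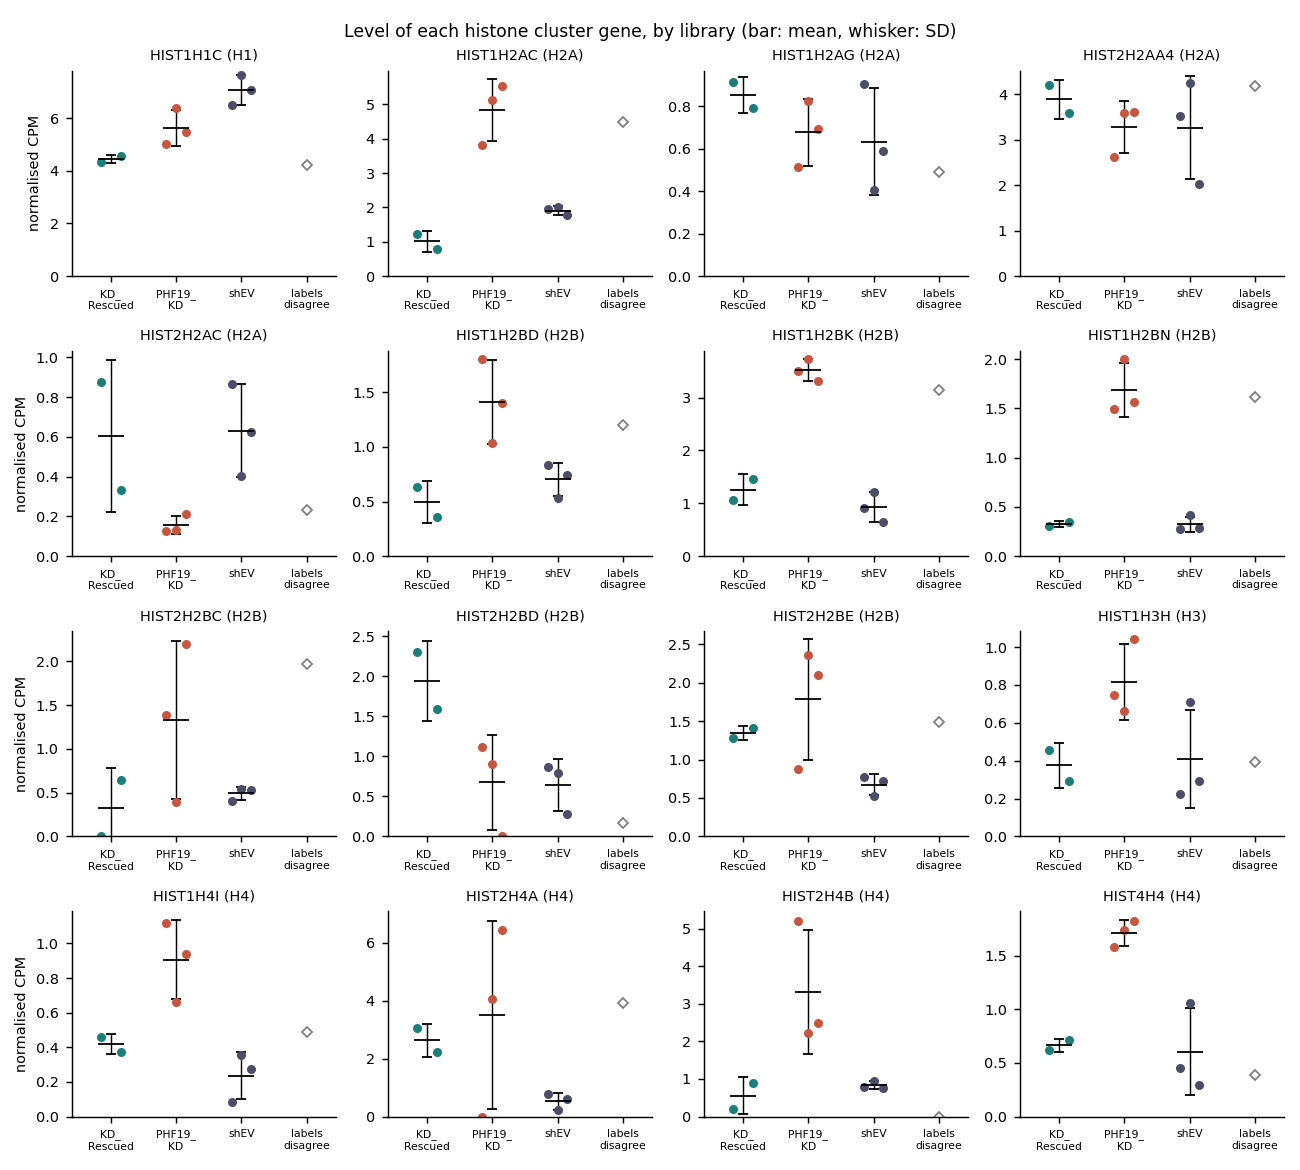
Level of each of the 16 members in normalised CPM (vertical axis, from 0), by library; bars are means, whiskers are SD and the open diamond is the library with disagreeing labels. HIST1H2AC, HIST1H2BD, HIST1H2BK, HIST1H2BN, HIST1H4I, HIST2H4B and HIST4H4 show all PHF19_KD libraries above all KD_Rescued and shEV libraries. HIST2H2AC shows all of them below, and HIST2H4A and HIST2H4B trade counts between libraries. HIST1H2BN, HIST1H4I and HIST2H2AC were kept by the count rule only through groups where they are high.

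At the edge of the count rule, HIST2H2AC, HIST1H4I and HIST1H3H reached 10 counts in 3 libraries and HIST1H2BN in 4. Just outside it, HIST1H2BC had at most 8.83 counts in a library, HIST2H2BF at most 8.57, and HIST1H2BH, HIST1H4J, HIST1H4K and HIST1H3G at most 8. Of 7 cluster genes known to give polyadenylated mRNA, 5 were tested. In PHF19_KD against shEV 4 of these rose and 1 fell, in KD_Rescued against PHF19_KD 3 fell, and in KD_Rescued against shEV 2 fell, beside 69.1%, 63.4% and 39.8% of all genes called either way. HIST1H2BC and HIST1H4H of that list were not tested. HIST1H2BC was at 0.367 and 0.177 CPM in KD_Rescued, 0.203, 0 and 0.0950 CPM in the PHF19_KD libraries and 0.321, 0.329 and 0.391 CPM in shEV, lower in PHF19_KD than in shEV with no overlap.

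Most variant histone genes outside the clusters fell in PHF19_KD. Of 12 listed genes 11 were tested, and in PHF19_KD against shEV 1 rose and 8 fell, beside 34.9% and 34.2% of all genes, and their median log2 fold change was -0.54. H2AFZ, which encodes the variant H2A.Z, fell to 173, 177 and 181 CPM in PHF19_KD, against 723, 730 and 757 CPM in shEV, at -2.06 ± 0.04 (edgeR adjusted p = 2.37e-12). CENPA, the H3 variant that marks centromeres, was at 2.09, 2.80 and 2.38 CPM in PHF19_KD and at 16.4, 14.9 and 16.5 CPM in shEV, a fall of -2.72 ± 0.12 (edgeR adjusted p = 1.72e-09). H2AFX, the variant phosphorylated at DNA breaks and known to give both stem-loop and polyadenylated mRNA, fell at -1.54 ± 0.15 (edgeR adjusted p = 2.72e-05). H2AFJ, an H2A variant, was the 1 riser, with 12.7, 14.1 and 12.6 CPM in PHF19_KD and 6.24, 7.08 and 4.90 CPM in shEV, at 1.11 ± 0.13 (edgeR adjusted p = 1.02e-05).

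After PHF19 was added back most of the called variants rose. In KD_Rescued against PHF19_KD 6 of the 11 variants rose and 2 fell, beside 33.9% and 29.5% of all genes, and in KD_Rescued against shEV 1 rose and 4 fell, beside 20.7% and 19.1%. The 5 of 11 called in that last comparison are near the share of all genes. H2AFZ was at 645 and 648 CPM in KD_Rescued, a rise of 1.87 ± 0.04 over PHF19_KD (edgeR adjusted p = 8.37e-12), and H2AFJ fell back at -1.43 ± 0.15 (edgeR adjusted p = 3.96e-06). H3F3B, which encodes the replication-independent histone H3.3, was at 365 and 369 CPM in KD_Rescued, 455, 459 and 469 CPM in the PHF19_KD libraries and 558, 542 and 587 CPM in shEV. It was lowest in KD_Rescued, at -0.61 ± 0.05 against shEV (edgeR adjusted p = 2.16e-06), the same order of groups as HIST1H1C.

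Most genes that make and handle histones fell in PHF19_KD too. A list of 50 genes, of which 49 were in the table and tested, covered transcription and cell cycle control, 3′ processing and decay of histone mRNA, and histone chaperones. In PHF19_KD against shEV 41 fell and 2 rose, with a median of -0.87, beside 34.2% of all genes lower and 34.9% higher and a median of 0.0342. In KD_Rescued against PHF19_KD 41 rose and 3 fell, with a median of 0.77, beside 33.9% of all genes higher and 29.5% lower. In KD_Rescued against shEV 5 rose and 15 fell, beside 20.7% of all genes higher and 19.1% lower. The total called was near the 39.8% of all genes, but more of the list fell than rose. Fewer of the list were called with 1 KD_Rescued library left out, which leaves 1 in that group.

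The gene for SLBP, the protein that binds the stem-loop, was at 125 and 126 CPM in KD_Rescued, 45.4, 48.2 and 47.6 CPM in the PHF19_KD libraries and 158, 165 and 183 CPM in shEV. It fell in PHF19_KD at -1.84 ± 0.06 (edgeR adjusted p = 1.28e-10), rose in KD_Rescued against PHF19_KD at 1.42 ± 0.07 (edgeR adjusted p = 3.01e-09) and stayed below control at -0.42 ± 0.06 (edgeR adjusted p = 0.000245). ERI1, a nuclease that trims the stem-loop end, fell at -1.71 ± 0.07 in PHF19_KD against shEV (edgeR adjusted p = 6.01e-10). ZCCHC11, which adds uridines to histone mRNA before decay, rose at 0.37 ± 0.06 (edgeR adjusted p = 9.89e-05). Of 17 tested genes of processing and decay, 13 fell and 1 rose, beside 34.2% and 34.9% of all genes.

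Of 10 genes of transcription and cell cycle control, 9 fell in PHF19_KD against shEV, beside 34.2% of all genes. All 10 rose in KD_Rescued against PHF19_KD, beside 33.9% of all genes. HINFP, an activator of H4 genes, was the gene not called in PHF19_KD, at 0.12 ± 0.07 (edgeR adjusted p = 0.126). It passed under upper-quartile scaling, at 0.28 (edgeR adjusted p = 0.00344), and with a filter at 5 CPM, at 0.22 (0.0117). Its rise in KD_Rescued against PHF19_KD, at 0.29 ± 0.07 (edgeR adjusted p = 0.00344), did not pass under upper-quartile scaling, at 0.14 (0.123), or in DESeq2 (adjusted p = 0.0511), and that of NPAT, at 0.32 ± 0.08 (edgeR adjusted p = 0.00245), did not under upper-quartile scaling, at 0.17 (0.0757). CCNA2, the cyclin of S phase, was at 139 and 131 CPM in KD_Rescued, 12.7, 13.3 and 12.5 CPM in the PHF19_KD libraries and 148, 154 and 162 CPM in shEV, at -3.59 ± 0.06 in PHF19_KD against shEV (edgeR adjusted p = 1.17e-12). E2F1, a transcription factor of S phase entry, fell at -3.82 ± 0.09 (edgeR adjusted p = 8.11e-12). NPAT, the coactivator of histone cluster genes, fell less, at -0.46 ± 0.07 (edgeR adjusted p = 8.37e-05), and CASP8AP2, a protein of the same nuclear body, at -1.21 ± 0.09 (edgeR adjusted p = 3.03e-07).

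Of the 22 chaperone and assembly genes 19 fell in PHF19_KD against shEV and 1 rose, beside 34.2% and 34.9% of all genes. ASF1B, which carries new H3 and H4, was at 93.1 and 91.6 CPM in KD_Rescued, 13.8, 11.8 and 13.0 CPM in the PHF19_KD libraries and 117, 117 and 107 CPM in shEV, at -3.14 ± 0.07 in PHF19_KD against shEV (edgeR adjusted p = 4.43e-12). CHAF1B, a subunit of the assembly factor CAF-1, fell at -2.56 ± 0.07 (edgeR adjusted p = 2.55e-11). NAP1L1, a chaperone of H2A and H2B, was the 1 riser, at 0.33 ± 0.05 (edgeR adjusted p = 7.67e-05). The library with disagreeing labels lay between PHF19_KD and shEV for PHF19 (63.1 CPM), SLBP (83.2 CPM) and CCNA2 (48.5 CPM). NPAT, CASP8AP2 and H2AFX were outside the naming rule and were named for their role after their values were seen.

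**Figure D5:**
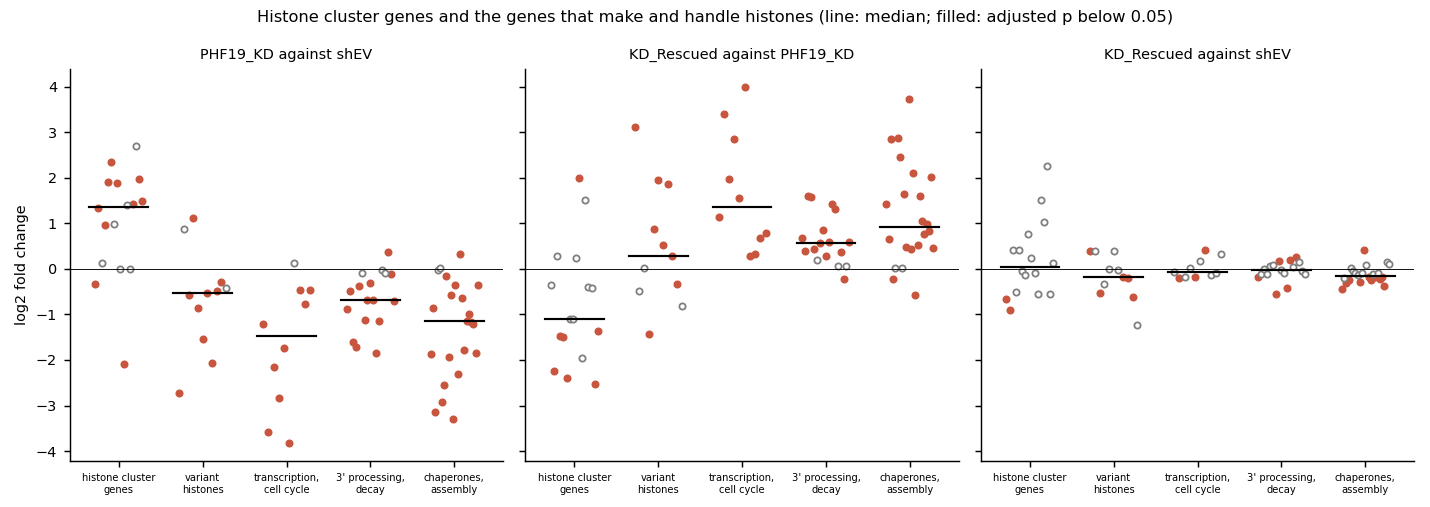
Log2 fold changes (vertical axis) of the members and of the listed variant, transcription, processing and chaperone genes in the 3 comparisons; lines are medians and filled points have an adjusted p below 0.05. In PHF19_KD against shEV the members have a median of 1.37, while variants are at -0.54, transcription and cell cycle genes at -1.47, processing genes at -0.68 and chaperones at -1.15.

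The split of calls over all genes depended on the scaling. In PHF19_KD against shEV 50.5% of all calls were higher with TMM and 60.6% with upper-quartile scaling, and in KD_Rescued against PHF19_KD 53.4% and 42.1%. Medians of all genes were 0.0342 and 0.19 in the first comparison and 0.0349 and -0.119 in the other. Those of the members were 1.37 and 1.52 in the first and -1.11 and -1.26 in the other.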

How the data were processed

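Estimated counts per gene symbol were deposited, 1 column per library over 58387 genes, and the authors left them unscaled. The submitters' processing notes name CASAVA, RSEM and hg19 with no role, and the table is named for salmon, so the program behind the counts is not settled. For annotation, filters and strand, the setting is not given in the sources used here. If the counting did not keep strand, reads of a gene and of an antisense or overlapping gene cannot be separated. Per the labels' protocols, libraries were made from total RNA with an Illumina TruSeq kit.

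Counts were rounded and tested with edgeR 4.0.16 in R 4.3.3 (filterByExpr, TMM, robust glmQLFit, glmQLFTest) in a single fit of group means over 8 libraries, with Benjamini-Hochberg adjustment over 16600 genes and a threshold of 0.05. The SE is the log2 fold change over the square root of F. Of the 16 members, 13 had counts that were not whole, within 0.01, in 1 or more libraries. Shares of 31-base words and stem-loops were read from GENCODE 29 transcripts, on which all 75 symbols matched. DESeq2 1.42.0, limma-voom (limma 3.58.1), other scalings and filters, a replicate block and leaving out each library were alternatives.

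Members and gene lists were chosen with earlier results of these data known. Named were PHF19, every called member, the member of each type with the most counts, and for each other list the 2 called rises and 2 called falls with the lowest adjusted p. The members outside this rule (HIST1H2AG, HIST2H2BC and HIST2H2BD), some rows left out by the count rule and cell type markers are described as well.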

Additional observations from a re-analysis of the deposited data

Results flagged for a closer look

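The library with disagreeing labels, which is in no group and no comparison, had a summed level of the 16 histone cluster genes of 28.34 CPM, below the lowest PHF19_KD library at 30.93 CPM and above the highest shEV library at 22.01 CPM. Within it, HIST1H2BN was at 1.61 CPM and HIST1H2BK at 3.15 CPM, each in or near the range of PHF19_KD, while HIST4H4 was at 0.391 CPM, within the range of shEV.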

How the results depend on the processing

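Of the values of the 16 members under the alternatives, 649 kept direction and side of the threshold, 25 came to pass it, 20 no longer passed and 32 changed sign. Counts of members called that moved by over 1.5 times, or to or from 0, were these. Lower in PHF19_KD than in shEV, 1 with upper-quartile scaling, 1 in DESeq2, 0 with a filter at 5 CPM and 1 over the members with whole counts. Higher there, 1 with the filter at 5 CPM and 1 over whole counts. Higher in KD_Rescued than in PHF19_KD, 0 in DESeq2, 2 without a filter, 0 at 5 CPM and 0 over whole counts, and lower, 2 at 5 CPM and 1 over whole counts. Higher in KD_Rescued than in shEV, 2 without a filter and 2 with the 3 pairs of similar copies summed (the sums HIST2H4A with HIST2H4B and HIST2H2BC with HIST2H2BD), and lower, 1 over whole counts. The filter at 5 CPM and the whole counts leave few members to count (only 3 are whole). For the other moves the cause was not tested. Smaller moves were to 7 (DESeq2) or 9 (limma-voom, copies summed) higher in PHF19_KD than in shEV, and to between 5 (DESeq2) and 8 (upper-quartile scaling) lower in KD_Rescued than in PHF19_KD.

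Signs changed for uncalled values. In PHF19_KD against shEV, HIST2H2BD was -0.0005383 with relative log expression scaling, -0.84 in limma-voom, -0.0873 without a filter, -0.046 with the replicate block and -0.0285 without mitochondrially encoded genes, and HIST2H2AA4 was 0.15 with upper-quartile scaling, 0.0366 in limma-voom and 0.028 with the block. HIST2H4A in KD_Rescued against PHF19_KD was 1.17 in limma-voom and 0.20 with the block. Against shEV, KD_Rescued gave 0.000688 for HIST1H3H in limma-voom and 0.00466 for CASP8AP2 with the block.

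Leaving out 1 library at a time, members higher in KD_Rescued than in PHF19_KD numbered 0 to 1, higher than in shEV 0 to 2, and lower in PHF19_KD than in shEV 1 to 2. In KD_Rescued against shEV, calls ran from 4048 to 7539 over all genes, 9 to 24 among supply genes and 2 to 7 among variants, lowest without a KD_Rescued library, which leaves 1. Fold changes in PHF19_KD against shEV ranged from -0.52 to 0.59 for HIST2H2BD, -0.24 to 0.22 for HIST2H2AA4 and -0.12 to 0.49 for HIST1H2AG, and in KD_Rescued against PHF19_KD from -0.99 to 0.32 for HIST2H4A. In KD_Rescued against shEV they ranged from -6.08 to 0.42 for HIST2H2BC (whose KD_Rescued replicate 1 is at 0), -1.97 to 0.14 for HIST2H4B, -0.17 to 0.14 for HIST1H2BN, -0.93 to 0.44 for HIST2H2AC, -0.48 to 0.53 for HIST1H3H, -0.17 to 0.79 for HIST4H4 and -0.15 to 0.0443 for CASP8AP2.

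Replicate numbers did not pair the libraries: deviations of same-numbered PHF19_KD and shEV libraries correlated at 0.00701, 0.0114 and 0.0256. With the replicate block 8 members rose and 2 fell in PHF19_KD against shEV, and no count of members moved. Depth limits the low members, most of them under 1 CPM in some library, so a missed call does not show equal levels.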

Other observations

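Values of the library with disagreeing labels were read beside the groups for H1 and H4. HIST1H1C was at 4.21 CPM, below both KD_Rescued libraries at 4.33 and 4.55 CPM and below every PHF19_KD and shEV library. The H4 members summed to 4.79 CPM, against 4.33 and 4.22 CPM in KD_Rescued and at least 7.91 CPM in PHF19_KD, and the H2B members summed to 9.58 CPM, against 5.58 and 5.83 CPM in KD_Rescued and at least 10.2 CPM in PHF19_KD.

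HIST2H2BF, the row that the count rule left out and the tests kept, was at 0.798, 0.472 and 0.581 CPM in PHF19_KD. It was at most at 0.307 CPM in shEV and 0.157 CPM in KD_Rescued. The row passed the filter on low counts only through PHF19_KD, where it is high, so its changes are given as descriptions. They were 1.73 in PHF19_KD against shEV (edgeR adjusted p = 0.0105) and -2.30 in KD_Rescued against PHF19_KD (edgeR adjusted p = 0.00528), on at most 8.57 counts a library.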
